A study of Mus musculus with 6 samples.

Results

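The genes described here are 10 matrix metalloproteinases measured in mouse intervertebral discs (IVDs): Mmp2, Mmp3, Mmp9, Mmp11, Mmp13 and Mmp19, whose products are secreted, and Mmp14, Mmp15, Mmp16 and Mmp23, whose products are held in the cell membrane. They were chosen by gene symbol, and they are 10 of the 43472 gene symbols counted in each library and 10 of 23 symbols of the form Mmp followed by a number. RNA was sequenced from 6 pools of thoracic and lumbar IVDs of mice at postnatal day 20, strain label C57B6/J, with 2 to 3 mice in a pool and no sex given. The 3 mutant pools came from Col2Cre;Adgrg6 f/f mice, in which Cre driven by a type II collagen promoter removes the adhesion receptor Adgrg6 throughout the IVD and also in periosteum and trabecular bone, while the 3 control pools are labelled wild type by genotype and Col2Cre controls by title, and are Cre (-) littermates according to the text of the study. The comparison asks which matrix-degrading enzymes differ in expression between IVDs with and without Adgrg6 at this early age.

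Matrix metalloproteinases are zinc-dependent enzymes that cut proteins of the extracellular matrix. They are made as inactive proenzymes, and a propeptide that blocks the catalytic zinc has to be removed before they can act. The secreted enzymes include collagenases, gelatinases and stromelysins, whereas the membrane-type enzymes act at the cell surface, where some of them activate secreted family members. In the disc these enzymes take part in the turnover of aggrecan and collagen, and Mmp3 and Mmp13 are commonly followed as catabolic genes in disc degeneration.

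Between 9061491 and 12017008 reads per library were counted on genes. The targeted gene appears under its older symbol, Gpr126, at 94.3 to 124 CPM (counts in a library scaled to 1000000, with library sizes adjusted by TMM) in control and 106 to 138 CPM in mutant libraries. These counts cover the whole gene rather than the deleted exons and so do not check the genotype labels. Control replicate 1 stood apart in 8 genes of skeletal muscle, which summed to 4012 CPM there, to 102 and 70.9 CPM in the other controls and to 141 to 155 CPM in the mutants. Mutant replicate 1 stood apart in genes of neutrophils, all 10 of which were highest there. Cartilage markers were high in every library, at 93016 to 155018 CPM summed over 12 genes in control and 125097 to 156990 CPM in mutant libraries, a sum made up mainly of Col2a1. Of these 12 genes, 3 were lower at an unadjusted p under 0.05 in edgeR (Col9a2, Col9a3 and Matn3, at log2 fold changes of -0.64, -0.73 and -0.78), 0 were higher, and the median log2 fold change was -0.30. Of the markers of other cells, 5 of 10 genes of tendon and outer annulus were higher in mutant libraries at an unadjusted p under 0.05 and 4 of 8 genes of hypertrophic chondrocytes were lower.

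Of the 10 metalloproteinases, Mmp3 and Mmp15 were higher in mutant IVDs at an unadjusted p under 0.05 with the quasi-likelihood test of edgeR, and 0 were lower. Mmp3, a stromelysin, rose 2.33-fold, and Mmp15, a membrane-type enzyme, rose 1.68-fold. Among all 16152 genes tested, 2.89% were higher and 4.32% were lower at the same threshold. These shares are the comparison for every gene list counted with edgeR in this report. After Benjamini-Hochberg adjustment, 0 of the 10 had an adjusted p under 0.05 in edgeR, DESeq2 or limma-voom. The adjustment was over all 16152 genes in edgeR and limma-voom, and in DESeq2 over those kept by its default independent filtering. At an unadjusted p under 0.05 these tools called 2, 3 and 4 of the 10, beside 1164, 1227 and 1476 of all 16152 genes. At an adjusted p under 0.05 they called 1, 58 and 0 of all genes. The 1 gene in edgeR, which is 0.00619%, is no metalloproteinase. In 3 of the 10, Mmp2, Mmp3 and Mmp15, every mutant library lay above every control library, as it did for 5.45% of all genes, and in 0 of the 10 did every mutant library lie below, as for 5.96% of all genes. The log2 fold change was above 0 in 6 of the 10, with a median of 0.12, beside a median of -0.01 over all genes, 48.4% of which were higher in mutant libraries. In bulk tissue, fewer cells of a type and less RNA per cell cannot be told apart, and this holds for every difference given here. With library totals used without TMM scaling, the median over all genes moved to -0.13 and 233 of 1223 genes at an unadjusted p under 0.05 were higher, compared with 467 of 1164 with TMM.

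**Figure D1:**
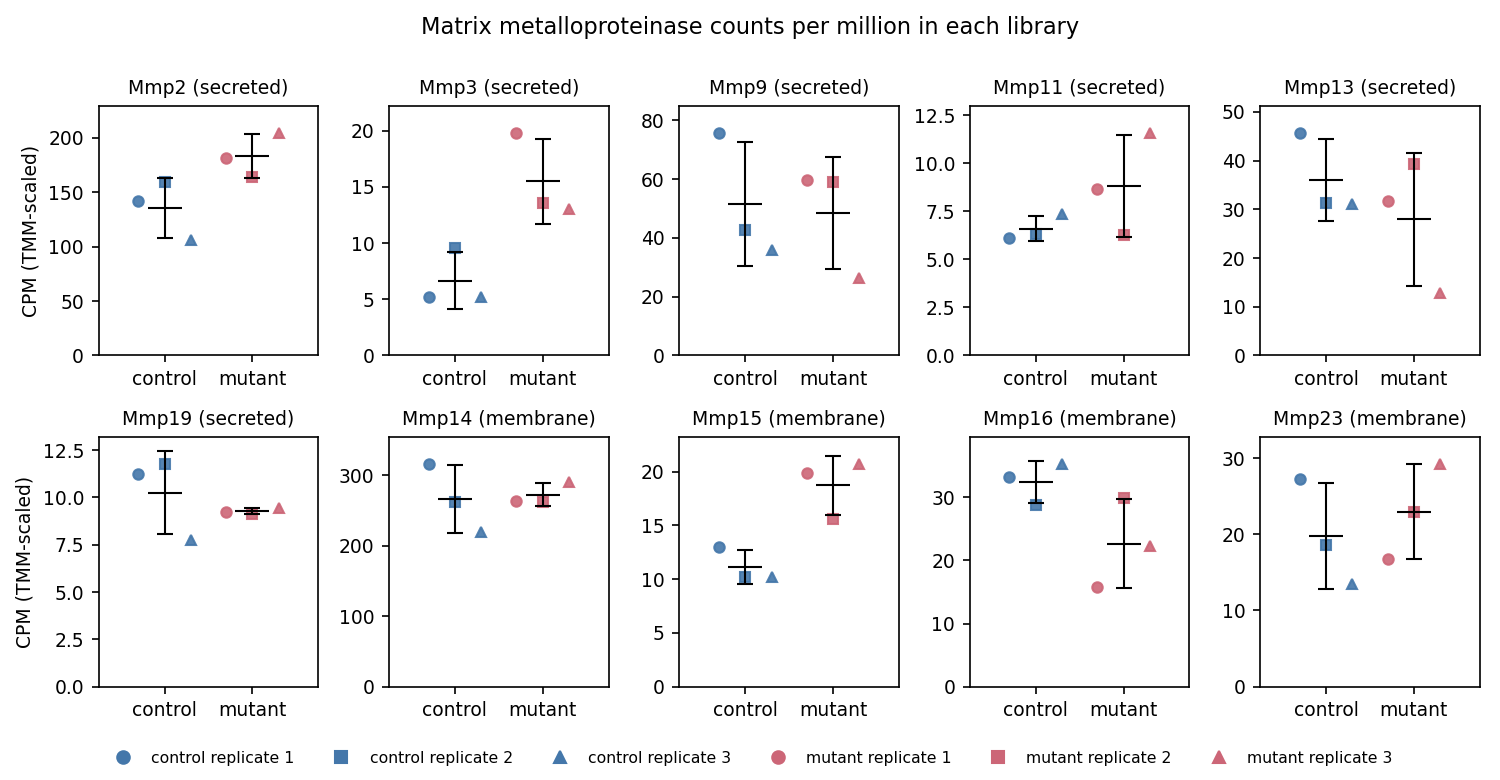
Expression of the 10 metalloproteinases in each library, in CPM scaled by TMM on linear axes that start at 0. Points are single libraries with a shape for each replicate, and the long tick and bars are the mean and SD of the 3 libraries of a group. Mutant points lie above all control points in Mmp2, Mmp3 and Mmp15, and the groups overlap in the other 7 genes.

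Mmp3 encodes a stromelysin that cuts proteoglycans and many other matrix proteins and can activate other proenzymes. It lies at chr9:7445822-7455975 on GRCm38, on the plus strand. Its level was 5.24, 9.55 and 5.16 CPM in control replicates 1, 2 and 3 and 19.8, 13.5 and 13.1 CPM in mutant replicates 1, 2 and 3. The groups did not overlap, with control replicate 2 the nearest to the mutants and mutant replicate 1 the farthest from the controls. The means were 6.65 ± 2.51 CPM in control and 15.5 ± 3.76 CPM in mutant IVDs (SD, n = 3), resting on 49 to 174 counts per library. This was a log2 fold change of 1.22 (standard error, SE, 0.32, unadjusted p = 0.00305 and adjusted p = 0.627, edgeR), and its 95% interval ran from 0.52 to 1.92, or 1.43-fold to 3.79-fold. Leaving out any 1 library gave 1.04, without mutant replicate 1, to 1.56, without control replicate 2, with an unadjusted p of 0.0139 or less in edgeR. The adjusted p ranged from 0.0239, in edgeR with no filter on low counts, to 0.999 over the 12 alternative settings.

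Mmp13 encodes the main collagenase of rodent cartilage, which cuts type II collagen, and its gene lies near Mmp3 in the same cluster of metalloproteinase genes, at chr9:7272514-7283331. Control replicates 1, 2 and 3 were at 45.7, 31.2 and 31.1 CPM, and the mutant replicates were at 31.8, 39.3 and 12.9 CPM. The groups overlapped, and mutant replicate 3 was the lowest of all libraries while control replicate 1 was the highest. The means were 36.0 ± 8.40 CPM in control and 28.0 ± 13.6 CPM in mutant IVDs, a difference within the spread between libraries (log2 fold change -0.36, SE 0.34, unadjusted p = 0.322 and adjusted p = 0.833, edgeR). Its 95% interval, from -1.13 to 0.41, includes both a fall of more than 2-fold and a small rise. With 1 library left out the value ran from -0.68 to -0.01, the latter without mutant replicate 3.

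Since Mmp3 and Mmp13 were counted in the same libraries, their ratio needs no scaling between libraries. The log2 ratio of Mmp3 counts to Mmp13 counts was -3.12, -1.71 and -2.59 in control replicates 1 to 3 and -0.68, -1.54 and 0.02 in mutant replicates 1 to 3. All mutant values lay above all control values, although mutant replicate 2 and control replicate 2 were close together. The means were -2.47 ± 0.71 and -0.73 ± 0.78, a difference of 1.74 with an exact two-sided permutation p of 0.1, which is the smallest p that 3 libraries against 3 allow. Both genes were chosen with earlier results of these data known. The ratio adds to the rise of Mmp3 a fall of Mmp13 that was within the spread between libraries, so it is no separate evidence for either gene.

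The sequences before the start sites of these genes are shown because Mmp3 and Mmp13, of the same cluster, share short motifs there and yet had different patterns across the libraries, and Mmp15 is shown as the other gene past the unadjusted threshold. Each is the 150 bases before the start of the RefSeq transcript, read 5′ to 3′ on the gene's plus strand in GRCm38.p6, and capitals mark motif letters. The positions are chr9:7445672-7445821 for Mmp3, chr9:7272364-7272513 for Mmp13 and chr8:95352146-95352295 for Mmp15, whose RefSeq start lies shortly inside the gene as GENCODE M21 has it.
Mmp3: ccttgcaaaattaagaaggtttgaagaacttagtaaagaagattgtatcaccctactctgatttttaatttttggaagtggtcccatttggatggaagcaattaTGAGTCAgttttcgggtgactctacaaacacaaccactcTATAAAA
Mmp13: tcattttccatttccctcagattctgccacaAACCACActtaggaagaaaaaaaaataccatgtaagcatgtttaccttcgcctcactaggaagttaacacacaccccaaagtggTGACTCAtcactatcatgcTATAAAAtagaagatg
Mmp15: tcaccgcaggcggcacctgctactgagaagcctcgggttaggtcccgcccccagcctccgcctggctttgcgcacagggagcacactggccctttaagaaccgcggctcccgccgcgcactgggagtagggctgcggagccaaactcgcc
The motifs searched were TGAGTCA, the site of the transcription factor AP-1, and TGTGGTT, a Runx site, both on either strand, and the letters of a core promoter box, TATAAAA, on the gene's strand. The matches do not overlap each other. In Mmp3, TGAGTCA starts 46 bases and TATAAAA 7 bases before the transcript start. In Mmp13, the reverse complement TGACTCA starts 35 bases, TATAAAA 16 bases and AACCACA, the reverse complement of the Runx letters, 119 bases before it. The Mmp15 window and those of Mmp11, Mmp14 and Mmp23 hold none of these letters in the 250 bases before and 50 after the start, and 6 of the 10 genes had a RefSeq window. Among 32851 windows of all genes, 5.2% hold the AP-1 letters, 5.27% the Runx letters and 3.27% the TATA letters.

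Mmp2 and Mmp9 are the gelatinases, which cut denatured collagens and type IV collagen. Mmp2, at chr8:92827291-92853420, was at 141, 159 and 106 CPM in control replicates 1 to 3 and at 182, 164 and 205 CPM in mutant replicates 1 to 3. Every mutant library was above every control library, but control replicate 2 and mutant replicate 2 were separated by only a small gap. The means of 136 ± 27.2 and 183 ± 20.2 CPM gave a log2 fold change of 0.44 (SE 0.20, unadjusted p = 0.0547 and adjusted p = 0.691, edgeR), with a 95% interval from -0.01 to 0.88. The unadjusted p was under 0.05 in 5 of the 12 alternatives, among them DESeq2 (unadjusted p = 0.0299) and limma-voom (unadjusted p = 0.0416), both fitted across all genes, and edgeR without control replicate 2 or without mutant replicate 2, and the log2 fold change stayed between 0.29 and 0.56.

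In skeletal tissue Mmp9 is made mainly by osteoclasts and neutrophils, and it is needed for the removal of hypertrophic cartilage. It lies at chr2:164940780-164955850 and was at 75.8, 42.9 and 36.0 CPM in control replicates 1 to 3 and at 59.9, 59.0 and 26.3 CPM in mutant replicates 1 to 3. As for Mmp13, control replicate 1 was the highest library and mutant replicate 3 the lowest, and the groups overlapped. The fitted log2 fold change was -0.09 (SE 0.34, unadjusted p = 0.802, edgeR), and its sign was not stable, since it was 0.32 without control replicate 1 and 0.21 without mutant replicate 3. The interval, from -0.85 to 0.67, leaves room for a change of more than 1.5-fold in either direction.

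Mmp11 is a stromelysin that is activated inside the cell by furin and has little activity on most matrix proteins. It lies at chr10:75923222-75936496 on the minus strand and was at 6.10, 6.33 and 7.35 CPM in control replicates 1 to 3 and at 8.65, 6.28 and 11.6 CPM in mutant replicates 1 to 3. The mutant values were more spread than the control values, and mutant replicate 2 lay within the controls. This gave a log2 fold change of 0.42 (SE 0.31, unadjusted p = 0.211, edgeR), which fits lacking mutant replicate 3 or 2 put at 0.18 and 0.63. Mmp11 shares 5.58% of its exon bases with Chchd10 on the opposite strand, which held 456 counts beside 470 for Mmp11 over the 6 libraries. The strand setting of the counting is not given in the sources used here, so reads of either gene may be counted on the other.

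Mmp19, at chr10:128790910-128800824, cuts components of basement membranes. It was at 11.2, 11.8 and 7.74 CPM in control replicates 1 to 3 and at 9.22, 9.14 and 9.46 CPM in mutant replicates 1 to 3. The mutant libraries were close together and lay within the range of the controls (log2 fold change -0.14, SE 0.26, unadjusted p = 0.599, edgeR), and leaving out control replicate 3 or 2 gave -0.30 and -0.034. It shares 22.3% of its exon bases with Tmem198b on the opposite strand, which held 1151 counts beside 592 for Mmp19. Here too, reads of either gene may be counted on the other, which was not tested.

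Over the 6 secreted enzymes, 1 rose at an unadjusted p under 0.05, 0 fell and 5 did not pass, with a median log2 fold change of 0.16. Their summed level was 193 to 286 CPM in control and 278 to 311 CPM in mutant libraries, so that the ranges overlapped. Mmp2 was the largest part of this sum in every library. Over the 4 membrane enzymes, 1 rose, 0 fell and 3 did not pass, with a median of 0.12, and the summed level was 279 to 389 CPM in control and 316 to 363 CPM in mutant libraries.

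Mmp14 is a membrane collagenase that activates the proenzyme of Mmp2 in a complex with Timp2. It lies at chr14:54431612-54445364 and was at 316, 262 and 220 CPM in control replicates 1 to 3 and at 264, 262 and 291 CPM in mutant replicates 1 to 3. The mutant values lay inside the control range, and the means of 266 ± 48.2 and 272 ± 16.3 CPM differed by far less than the spread between libraries. The log2 fold change was 0.03 with TMM (SE 0.19, unadjusted p = 0.868, edgeR, with a 95% interval from -0.40 to 0.46) and -0.07 with library totals, so it has no stable sign.

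Mmp15, at chr8:95352268-95375080, encodes another membrane-type enzyme able to activate the proenzyme of Mmp2. It was at 12.9, 10.2 and 10.2 CPM in control replicates 1 to 3 and at 19.9, 15.6 and 20.7 CPM in mutant replicates 1 to 3. The groups did not overlap, with control replicate 1 and mutant replicate 2 the nearest libraries, and the counts ranged from 92 to 195 per library. The means of 11.1 ± 1.57 and 18.7 ± 2.76 CPM gave a log2 fold change of 0.75 (SE 0.22, unadjusted p = 0.00625 and adjusted p = 0.676, edgeR). The 95% interval was 0.26 to 1.24, or 1.20-fold to 2.35-fold. Leaving out 1 library gave 0.67 to 0.89 with an unadjusted p of 0.0272 or less in edgeR, and the adjusted p lay between 0.136 and 0.999 over the 12 alternatives.

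Mmp16 is a membrane-type enzyme of the same subgroup as Mmp14 and Mmp15, and its gene spans chr4:17852893-18119145. It was at 33.2, 28.8 and 35.3 CPM in control replicates 1 to 3 and at 15.8, 29.9 and 22.2 CPM in mutant replicates 1 to 3. Mutant replicates 1 and 3 were below all controls, whereas mutant replicate 2 lay among them. The means of 32.4 ± 3.32 and 22.6 ± 7.03 CPM gave a log2 fold change of -0.51 (SE 0.23, unadjusted p = 0.0503 and adjusted p = 0.691, edgeR). In edgeR it was -0.75 (unadjusted p = 0.00690) without mutant replicate 2 and -0.28 (unadjusted p = 0.220) without mutant replicate 1. With all 6 libraries its unadjusted p was under 0.05 with library totals (0.0462, edgeR), with no filter on low counts (0.0306, edgeR) and with limma-voom (0.0336), which makes 4 of the 12 alternatives.

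Mmp23 differs from the other membrane enzymes in that it is anchored by its amino-terminal part and is shed when its propeptide is cut. It lies at chr4:155650655-155653384 on the minus strand and was at 27.3, 18.7 and 13.5 CPM in control replicates 1 to 3 and at 16.7, 22.9 and 29.2 CPM in mutant replicates 1 to 3. The groups overlapped over most of their range. Their log2 fold change was 0.22 (SE 0.29, unadjusted p = 0.466, edgeR), running from 0.01 to 0.54 as single libraries were left out.

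**Figure D2:**
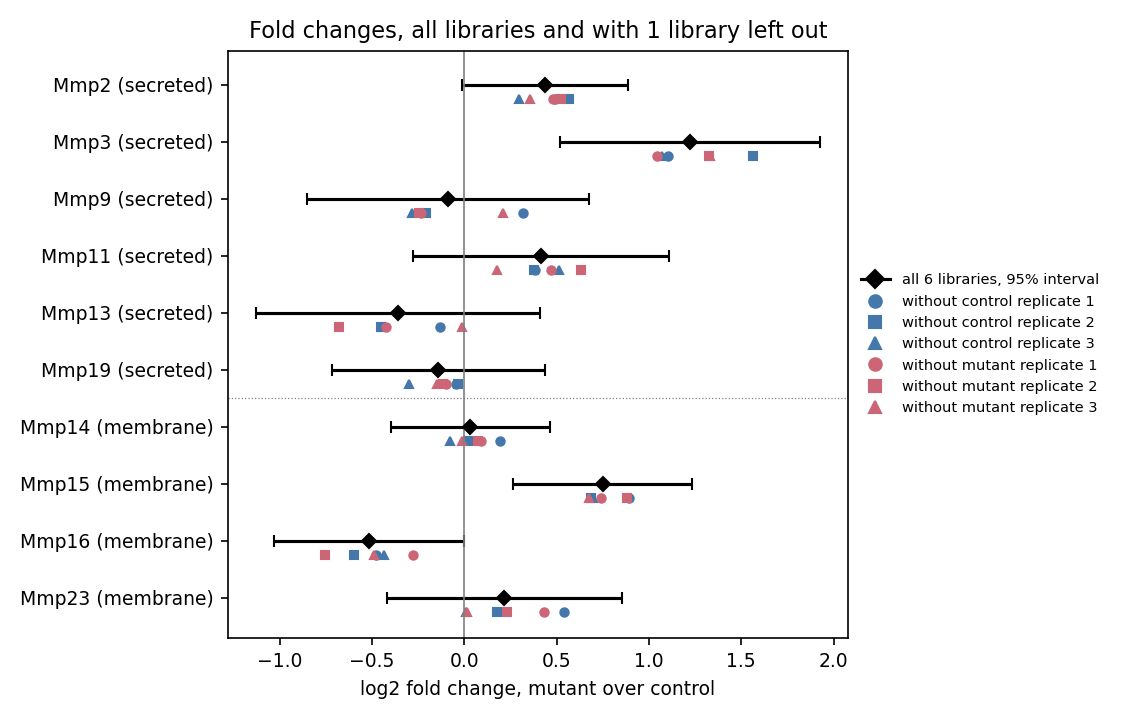
Log2 fold changes of mutant over control IVDs from edgeR, with a diamond and its 95% interval for all 6 libraries and small points for fits that leave out 1 library each. The dotted line separates secreted from membrane enzymes. The intervals of Mmp3 and Mmp15 lie above 0 and all their small points do too, whereas the small points of Mmp9 and Mmp14 fall on both sides of 0.

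To compare genes with each other, CPM was divided by the kilobases of merged exons in GENCODE M21. On this length-scaled level, the order in control IVDs from high to low was Mmp14, Mmp2, Mmp9, Mmp13, Mmp23, Mmp16, Mmp3, Mmp19, Mmp11 and Mmp15. Mmp14 was at 44.6 ± 8.09 and Mmp2 at 40.2 ± 8.08 CPM per kb, and the ranges of these 2 genes overlapped. Both stood above Mmp9, at 14.6 ± 6.0 CPM per kb, and Mmp13, at 13.5 ± 3.14 CPM per kb, which overlapped each other. Mmp23 was at 8.47 ± 2.97 CPM per kb, and the other 5 genes lay between 2.06 ± 0.291 for Mmp15 and 3.74 ± 0.383 for Mmp16. Neighbours in this order overlapped in their control ranges except Mmp2 with Mmp9 and Mmp23 with Mmp16. In mutant IVDs Mmp2 ranked above Mmp14, at 54.4 ± 5.99 and 45.7 ± 2.73 CPM per kb, Mmp3 ranked sixth at 8.59 ± 2.09 CPM per kb, Mmp15 ranked seventh at 3.47 ± 0.511 CPM per kb and Mmp16 was lowest in the mean at 2.61 ± 0.812 CPM per kb, next to Mmp19 at 2.62 ± 0.0466 CPM per kb. Neighbours in the mutant order overlapped in their ranges except Mmp14 with Mmp9 and Mmp3 with Mmp15.

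**Figure D3:**
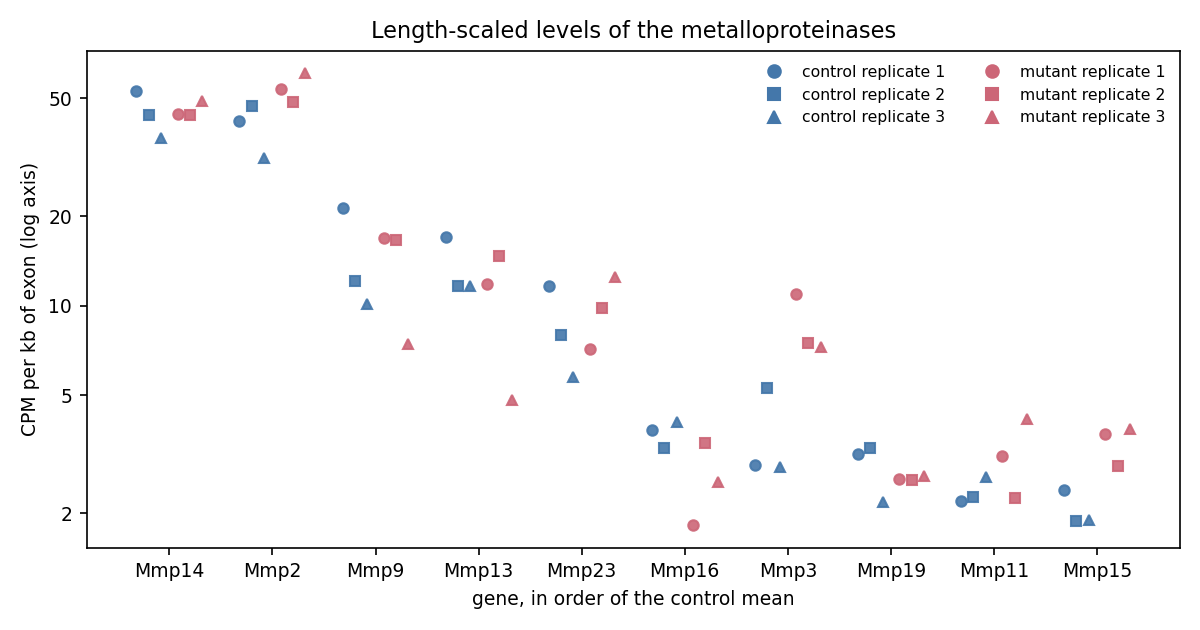
Length-scaled level of each metalloproteinase, in CPM per kb of exon on a log axis, with 1 point per library and genes in the order of their control mean. Mmp14 and Mmp2 lie above 30 CPM per kb in every library, and the mutant points of Mmp3 lie above its control points.

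As shares of all counts on the 23 Mmp genes, without length scaling, Mmp14 took 39.9% to 44.9% and Mmp2 20.1% to 30.6% of a library. Mmp9 took 3.94% to 10.8%, Mmp13 1.92% to 6.50% and Mmp3 0.746% to 2.99%. The secreted members together took 40.5% on average in control and 44.4% in mutant libraries, and the membrane members 54.2% and 50.9%. Both pairs of averages came from ranges that overlapped between the groups. The 23 genes together received 573 to 689 CPM of unscaled gene counts in control and 589 to 666 in mutant libraries.

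The 13 other Mmp genes took 3.99% to 6.0% of these counts. Of them, 10 had too few counts to be tested, and Mmp1a, Mmp7, Mmp10 and Mmp27 had 0 counts in every library. This group includes Mmp8, the neutrophil collagenase, with 12 counts over the 6 libraries, and Mmp12, the macrophage elastase, with 14. The 3 that were tested, Mmp17, Mmp24 and Mmp28, had log2 fold changes of 0.21, -0.30 and 0.37, and 0 of them passed in edgeR at an unadjusted p under 0.05, the lowest p being 0.198.

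The activity of these enzymes is held back by the tissue inhibitors Timp1 to Timp4, by the membrane-anchored inhibitor Reck and by the plasma protein A2m. In edgeR, 0 of these 6 genes passed at an unadjusted p under 0.05, and the median log2 fold change was 0.26. Timp2, which also helps Mmp14 to activate Mmp2, was at 326, 386 and 350 CPM in control replicates 1 to 3 and at 389, 446 and 470 CPM in mutant replicates 1 to 3, with all mutant libraries above all controls (log2 fold change 0.30, unadjusted p = 0.141, edgeR). Timp3, which binds to the matrix, was at 382, 252 and 266 CPM in control and 323, 333 and 401 CPM in mutant libraries, with an overlap (0.23, unadjusted p = 0.307, edgeR). Timp3 shares 21.3% of its exon bases with Syn3 on the opposite strand, which held 20322 counts beside 19947 for Timp3. With the strand setting not given, reads of either gene may be counted on the other, which was not tested.

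Timp1 was at 47.1, 40.6 and 37.6 CPM in control and 43.9, 24.1 and 34.8 CPM in mutant libraries, with a log2 fold change of -0.29 (unadjusted p = 0.224, edgeR) that was -0.070 without mutant replicate 2. Reck was at 38.0, 57.2 and 43.3 CPM in control and 77.2, 56.6 and 46.9 CPM in mutant libraries (0.38, unadjusted p = 0.12, edgeR). Timp4 and A2m were low, at 7.54 to 20.5 and 0.625 to 4.44 CPM, and their groups overlapped. Timp3 passed in edgeR without control replicate 1 (unadjusted p = 0.0482) and Reck without control replicate 2 or mutant replicate 3 (unadjusted p = 0.0458 and 0.0488). With 1 library left out, the log2 fold change ran from 0.12 to 0.46 for Timp3 and from 0.20 to 0.56 for Reck. The low values came without control replicate 2 for Timp3 (unadjusted p = 0.642, edgeR) and without mutant replicate 1 for Reck (unadjusted p = 0.375, edgeR). For Timp4 the log2 fold change of 0.15 turned to -0.20 with limma-voom. Summed over the 6 genes, control libraries were at 705 to 804 CPM and mutant libraries at 856 to 963 CPM, a sum made up mainly of Timp2 and Timp3.

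Among 14 genes for activation, binding or uptake of metalloproteinases, 13 were tested, of which 2 rose and 0 fell at an unadjusted p under 0.05 in edgeR. Over all genes, 2.89% were higher and 4.32% lower at this threshold. The median log2 fold change of the 13 was 0.14. Cd44, a hyaluronan receptor that holds Mmp9 at the cell surface, was at 17.4, 15.4 and 17.4 CPM in control replicates 1 to 3 and at 22.8, 29.0 and 22.2 CPM in mutant replicates 1 to 3 (log2 fold change 0.56, SE 0.19, unadjusted p = 0.0142 and adjusted p = 0.676, edgeR). Thbs2, a thrombospondin that binds Mmp2 for uptake, was at 71.9, 53.4 and 43.1 CPM in control and 64.2, 130 and 107 CPM in mutant libraries (0.84, SE 0.27, unadjusted p = 0.0121 and adjusted p = 0.676, edgeR). The Cd44 groups were apart, whereas for Thbs2 mutant replicate 1 lay below control replicate 1. Furin, the protease that activates Mmp11 and the membrane types, had a log2 fold change of 0.11, and Lrp1, the receptor that takes up Mmp2, Mmp9 and Mmp13, had 0.07.

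Marker levels also differed between libraries for hypertrophic chondrocytes, osteoclasts, osteoblasts and neutrophils, cells that can express Mmp9 or Mmp13. The 8 hypertrophic markers summed to 2004 to 2926 CPM in control and 1888 to 2372 CPM in mutant libraries, with 0 higher and 4 lower at an unadjusted p under 0.05 in edgeR (Ihh, Panx3, Mef2c and Runx2). Col10a1, the collagen that defines these cells, was at 640, 330 and 226 CPM in control replicates 1 to 3 and at 328, 190 and 116 CPM in mutant replicates 1 to 3. It was highest in control replicate 1 and lowest in mutant replicate 3, as were Mmp13, Mmp9, Panx3 and Runx2, but in mutant replicate 2 Col10a1 was below every control while Mmp13 was the second highest of the libraries. Other markers of the list had other orders, with Spp1 higher in every mutant library than in any control and Ibsp highest in mutant replicate 2.

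The 8 osteoclast markers summed to 132 to 158 CPM in control and 147 to 247 CPM in mutant libraries. Only 4 of them had enough counts to be tested, of which 1, Nfatc1, was higher at an unadjusted p under 0.05 in edgeR and 0 were lower. Acp5, their acid phosphatase, was at 35.3, 26.1 and 23.5 CPM in control and 10.4, 84.2 and 7.54 CPM in mutant libraries, so that mutant replicate 2 stood far above the other mutants. Ctsk, their collagen-cutting cathepsin, ranged from 41.9 to 53.2 CPM in control and from 46.1 to 68.9 CPM in mutant libraries, and Atp6v0d2, a proton pump subunit, from 2.7 to 5.0 CPM and from 0.850 to 3.43 CPM (log2 fold change -0.61, unadjusted p = 0.314, edgeR), whereas the untested Ocstamp, Dcstamp, Oscar and Calcr were at most 4.46 CPM in any library. Calcr was lower in every mutant library than in any control, at 0.114 to 0.490 CPM against 0.535 to 4.46 CPM. This rests on 1 to 57 counts per library, with a very small gap between the groups. Among the genes tested, 5.96% had every mutant library below every control library. Osteoblast markers summed to 110 to 165 CPM in control and 100 to 161 CPM in mutant libraries, with 2 of 6 tested higher (Bglap and Bglap2, near-identical copies whose reads may be split between them), 1 lower (Phex) and Smpd3 at 0 in every library.

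The 10 neutrophil markers summed to 16.6 to 62.8 CPM in control and 35.3 to 165 CPM in mutant libraries, 2 of them, Mpo and Prtn3, higher at an unadjusted p under 0.05 in edgeR. The highest sum was that of mutant replicate 1, at 165 CPM beside 59.7 and 35.3 CPM in the other mutants, and Mmp3 was highest in the same library. For macrophages, 1 of 7 markers was higher, Cd68, and for red blood cells 1 of 7, Slc4a1. The 10 tendon and outer annulus markers summed to 10954 to 26285 CPM in control and 23344 to 41372 CPM in mutant libraries, and the genes that were higher there, beside Mmp3 and Mmp15, were Tnmd, Thbs4, Col1a1, Tnxb and Dpt. Nucleus pulposus and endothelial markers had 0 genes past an unadjusted p under 0.05 in edgeR. All 8 muscle markers were lower at an unadjusted p under 0.05, with control replicate 1 as the high library. Without control replicate 1 the log2 fold change was 1.10 for Mmp3 (unadjusted p = 0.00901) and 0.89 for Mmp15 (unadjusted p = 0.00477) in edgeR. The part of these cells in the metalloproteinase values was not tested.

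**Figure D4:**
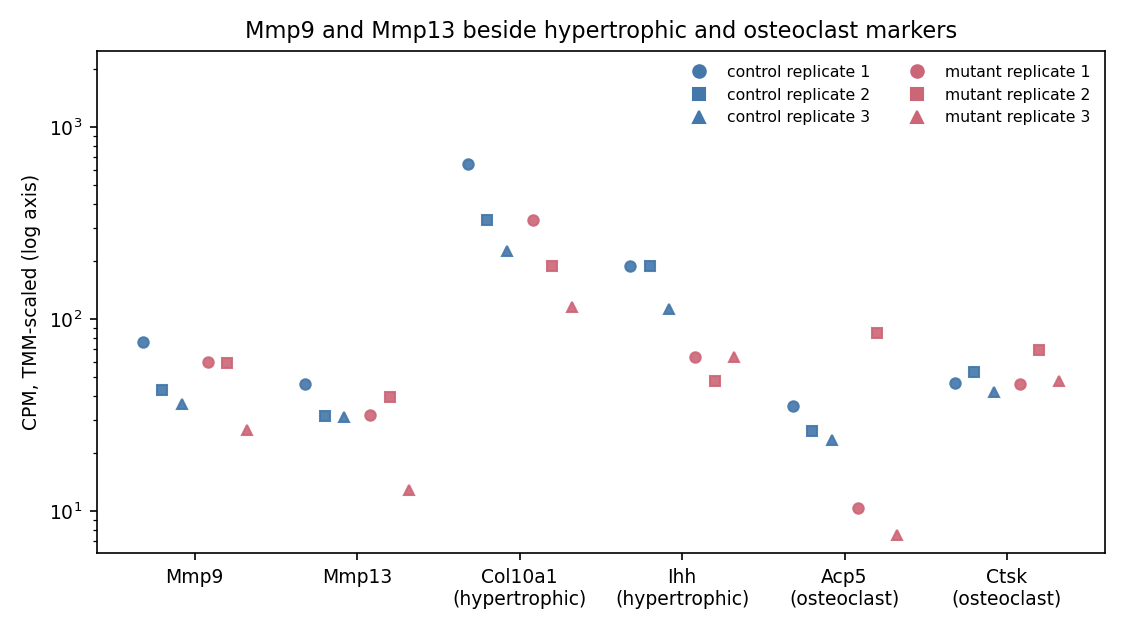
Mmp9 and Mmp13 beside 2 hypertrophic chondrocyte genes and 2 osteoclast genes, in CPM scaled by TMM on a log axis, with 1 point per library. Mmp9, Mmp13 and Col10a1 are highest in control replicate 1 and lowest in mutant replicate 3, and Acp5 is highest in mutant replicate 2.

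Across the 6 libraries, which share tissue, depth range and genotype groups, pairs of metalloproteinases differed in how alike their log2 CPM ran, and these Pearson correlations are given as a description. Mmp9 and Mmp13 ran together at 0.88, Mmp14 and Mmp23 at 0.89, Mmp2 and Mmp3 at 0.82, Mmp2 and Mmp15 at 0.81 and Mmp3 and Mmp15 at 0.77. Mmp3 and Mmp16 ran opposite at -0.86, as did Mmp11 and Mmp13 at -0.91. Group means were not removed, so differences between mutant and control libraries enter these values. In Mmp2, Mmp3 and Mmp15 every mutant library lay above every control library. Among the 16151 other genes tested, 147 reached more than 0.9 with Mmp3, and 120 did so with Mmp9 and with Mmp13, so a high value over 6 libraries does not single a gene out, and nothing more is read from the names that follow.

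The genes most like Mmp3 by this measure were Tmem230 at 0.998, Tmem229b at 0.996, Gm16596 at 0.993, Pkd2 at 0.990 and Arl2bp at 0.987. For Mmp9 they were Nnt and Hirip3 at 0.993, Mtcp1 at 0.992, Vdr, the vitamin D receptor, at 0.991 and Xkr5 at 0.985. For Mmp13 they were Ormdl3 at 0.993, Slc18a2 at 0.990, Thg1l at 0.989, Rbm24 at 0.988 and Lmbrd2 at 0.986. None of these 15 genes is in the lists of metalloproteinases, inhibitors, partners or cell markers used here.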

How the data were processed

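Total RNA of 6 pools of IVDs was enriched for poly(A) RNA and sequenced in paired ends by the authors. The authors deposited, for each library, raw read counts per gene symbol, without normalization. The methods of the study name Cutadapt, FastQC and HISAT2 on GRCm38.88 with FPKM from StringTie and Ballgown, while the submitters' processing notes name STAR 2.5.3a, HTSeq and DESeq2 on mm10, and the files end with the lines of htseq-count. The strand setting is not given in the sources used here. The authors' table of the comparison holds fold changes, p-values and scaled values of selected genes and was not used.

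From the deposited counts, reads assigned to no gene were left out (39.4% to 43.3% of reads entering the count). Ambiguous reads (0.846% to 1.05%) and reads not aligned (12.0% to 18.9%) were also left out, which left 40.4% to 44.2% on genes. Reads assigned to no gene need not lie outside genes, since the strand setting is not given. Mutant and control libraries were compared in edgeR 4.0.16 under R 4.3.3 with TMM, filterByExpr at its count minimum of 10 and the quasi-likelihood test, and p-values of the 16152 genes tested were adjusted by Benjamini-Hochberg. The standard error is the log2 fold change divided by the square root of F, and log2 CPM for correlations used a prior count of 2. The Mmp3 to Mmp13 ratio was tested by exact permutation with scipy 1.17.1. The fit was checked on simulated data. Positions, exon lengths and overlaps are from GENCODE M21 on GRCm38, and promoter sequences from RefSeq.

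The 10 genes and all gene lists (other Mmp genes, inhibitors, activators and partners, and markers of cartilage, nucleus pulposus, tendon and outer annulus, hypertrophic chondrocytes, osteoblasts, osteoclasts, neutrophils, macrophages, red blood cells, skeletal muscle and endothelium) were chosen with earlier results of these data known. All 10 genes are named, as are other Mmp genes, inhibitors and partners at an unadjusted p under 0.05, the Timp genes and Reck, and the 5 genes most correlated with Mmp3, Mmp9 and Mmp13. Exceptions are cell markers and genes named for their role or zero counts, which were picked after their values were seen. Pools are the replicates, and p-values measure the spread between pools only. Reads carry no molecular identifiers, so depth gives counting precision only. Alternatives were RLE size factors, library totals, no low-count filter, a replicate block, DESeq2 1.42.0 without a prior, limma-voom (limma 3.58.1) with quality weights, and leaving out each library.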

Additional observations from a re-analysis of the deposited data

How the results depend on the processing

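Mmp3 and Mmp15 kept their direction and an unadjusted p under 0.05 in all 12 alternatives, and with no filter on low counts Mmp3 also had an adjusted p of 0.0239 in edgeR. The count of metalloproteinases at an unadjusted p under 0.05, 2 of 10, became 4 with no filter on low counts and 4 with limma-voom, by the addition of Mmp2 and Mmp16, 3 with library totals (Mmp16) and with DESeq2 (Mmp2), and 2 to 4 with 1 library left out, where the 4 came without mutant replicate 2. Over all genes, the 1164 at an unadjusted p under 0.05 became 2276 with no filter, which tested 26418 genes. They became 1223 with library totals and 1227 with DESeq2. With 1 library left out they became 618 to 2427, the lowest without control replicate 3 and the highest without control replicate 1. Without mutant replicate 2, where 4 metalloproteinases passed, 1669 of 17095 genes did. Without control replicate 2, where 3 metalloproteinases passed, 929 of 16610 genes did. The 1 gene at an adjusted p under 0.05 became 245 with no filter, 58 with DESeq2, 0 with limma-voom, which called 1476 at an unadjusted p, and 0 to 31 with 1 library left out in edgeR, the 31 without control replicate 1. The cause was not tested. Signs that turned were those of Mmp9 (-0.28 to 0.32 with 1 library left out, above 0 without control replicate 1 at 0.32 and without mutant replicate 3 at 0.21), of Mmp14 (-0.070 with library totals, and -0.078 to 0.20 with 1 library left out, below 0 without control replicate 3 at -0.078 and without mutant replicate 3 at -0.01) and of Timp4 (-0.20 with limma-voom, -0.19 to 0.73 with 1 library left out). The difference in the log2 ratio of Mmp3 to Mmp13 ran from 1.37 to 2.15 with 1 library left out.

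With the replicate number as a block, edgeR called the same 2 metalloproteinases, 1002 genes at an unadjusted and 0 at an adjusted p under 0.05. The labels do not say that a number is shared between groups, and deviations of same-numbered libraries correlated at 0.16, -0.13 and 0.10, so the numbers were not taken to pair the libraries.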
